A study of Mus musculus with 9 samples.

Results

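The Cyp2c genes encode cytochrome P450 enzymes of subfamily 2C, which oxidise drugs, steroids, fatty acids and bile acids in the endoplasmic reticulum of hepatocytes. The members described here are the 10 genes Cyp2c23, Cyp2c29, Cyp2c37, Cyp2c38, Cyp2c39, Cyp2c40, Cyp2c50, Cyp2c54, Cyp2c55 and Cyp2c70, chosen by name. Of these, 9 had a probe set that the array annotation assigns to that symbol alone, with 1 probe set per gene, out of 45101 probe sets and 18194 such genes on the array. Cyp2c40 is named in no such probe set and has no value here. All 9 measured members lay above the filter on dim signals and were tested among 13888 genes.

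RNA was measured on 9 mouse arrays in 3 groups of 3 pieces of tissue. The tumor pieces came from a hepatocellular carcinoma with severe steatosis in a SART1+/- mouse. The adjacent liver pieces came from the same SART1+/- mouse and are labelled as altered cells with severe steatosis. The wild-type liver pieces came from 1 wild-type mouse, labelled as normal with mild steatosis. Both mice were male C57Bl6 animals aged 12 months, fed regular chow and untreated. The sources used here do not say how the Sart1 allele was altered. Because the pieces of a group share 1 animal, the p-values measure the spread between pieces of a liver or tumor. Genotype, animal, grade of steatosis and tumor growth cannot be told apart in the comparisons with wild-type liver. In tissue pieces, fewer hepatocytes and less RNA per hepatocyte cannot be told apart either.

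The mouse Cyp2c enzymes share most of their sequence but not their substrates. Several of them convert arachidonic acid to epoxides or hydroxy acids that act as local lipid signals, and Cyp2c70 makes the muricholic acids, bile acids typical of rodents. Their transcription in liver depends on hepatocyte factors such as HNF4A and C/EBPα, on the drug-sensing receptors CAR (gene Nr1i3) and PXR (gene Nr1i2), and on the sex-dependent pattern of growth hormone release. The RefSeq table of assembly GRCm38.p6 places 15 protein-coding Cyp2c genes on chromosome 19. Cyp2c55, Cyp2c29, Cyp2c39, Cyp2c38, Cyp2c40, Cyp2c37, Cyp2c54, Cyp2c50 and Cyp2c70 follow each other there in that order, with Cyp2c65, Cyp2c66, Cyp2c67, Cyp2c68 and Cyp2c69 between them. Cyp2c23, formerly called Cyp2c44, stands after them on the same chromosome.

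The sequences upstream of these genes show how alike the neighbours are, and RefSeq windows of the 250 bases before the annotated start were available for 8 of the 10 members. Cyp2c39 has 2 such windows, for 9 in all. The 5 windows below are shown because they belong to a pair of cluster genes that both fell strongly in tumor, to the hepatic gene Cyp2c29, and to the members that stand apart from it in adjacent liver. Each runs 5′ to 3′ towards its gene, and capitals mark CAAAGTC, searched on both strands and known as part of the repeat bound by HNF4A. They lie at chr19:39992174-39992423 (plus strand, Cyp2c37), chr19:40089429-40089678 (plus strand, Cyp2c50), chr19:39286835-39287084 (plus strand, Cyp2c29), chr19:40187287-40187536 (minus strand, Cyp2c70) and chr19:39006769-39007018 (plus strand, Cyp2c55) of GRCm38.p6.
Cyp2c37: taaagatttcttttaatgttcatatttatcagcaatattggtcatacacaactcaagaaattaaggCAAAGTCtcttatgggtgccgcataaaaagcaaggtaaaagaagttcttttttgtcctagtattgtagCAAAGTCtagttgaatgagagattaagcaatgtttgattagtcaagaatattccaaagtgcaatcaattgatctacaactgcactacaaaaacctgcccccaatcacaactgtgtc
Cyp2c50: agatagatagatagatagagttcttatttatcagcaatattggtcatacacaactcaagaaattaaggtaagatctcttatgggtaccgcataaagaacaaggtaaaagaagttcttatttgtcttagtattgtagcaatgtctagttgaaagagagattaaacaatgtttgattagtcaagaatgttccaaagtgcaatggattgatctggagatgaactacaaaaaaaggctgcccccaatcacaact
Cyp2c29: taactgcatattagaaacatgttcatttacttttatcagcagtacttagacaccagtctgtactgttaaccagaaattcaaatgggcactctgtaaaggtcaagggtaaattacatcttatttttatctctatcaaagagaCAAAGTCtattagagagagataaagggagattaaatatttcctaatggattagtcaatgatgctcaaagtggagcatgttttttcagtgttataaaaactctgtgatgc
Cyp2c70: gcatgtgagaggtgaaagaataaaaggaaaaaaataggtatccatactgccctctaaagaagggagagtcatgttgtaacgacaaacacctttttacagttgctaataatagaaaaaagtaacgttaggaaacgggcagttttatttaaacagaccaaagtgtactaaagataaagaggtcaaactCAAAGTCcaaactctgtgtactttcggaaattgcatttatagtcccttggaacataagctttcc
Cyp2c55: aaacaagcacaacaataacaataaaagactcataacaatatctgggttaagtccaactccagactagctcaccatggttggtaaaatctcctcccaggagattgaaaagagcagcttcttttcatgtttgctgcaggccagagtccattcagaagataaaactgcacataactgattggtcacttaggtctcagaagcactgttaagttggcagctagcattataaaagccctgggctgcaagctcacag

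The Cyp2c37 and Cyp2c50 windows were identical at 87.8% of 245 aligned bases. Cyp2c38 matched the 2 windows of Cyp2c39 at 89.6% and 85.5% of aligned bases, and Cyp2c29 matched Cyp2c38 at 82.0%. Outside the pair of Cyp2c37 and Cyp2c50 and the group of Cyp2c29, Cyp2c38 and Cyp2c39, the windows of different members were identical at 59.8% to 76.5% of aligned bases. CAAAGTC occurred in the windows of 5 of the 8 members, Cyp2c29, Cyp2c37, Cyp2c39, Cyp2c40 and Cyp2c70, against 3.84% of 32851 mouse promoter windows of the same length. Cyp2c37 held it at 184 to 178 and at 116 to 110 bases before the start. Counted from the 5′ end of the motif with the Cyp2c37 base first, Cyp2c50 carried A4T opposite the match nearer the start, and C1T, A4G and G5A opposite the other. TGTTTAC, a FOXA-type motif, occurred in the windows of Cyp2c38 and Cyp2c39 and in 3.17% of all promoter windows. TTNNGCAA, a C/EBP-type motif, occurred in the window of Cyp2c37 and in 9.56% of all promoter windows. These matches describe letters in a window, and binding was not measured.

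The array values are log2 signals per probe set after RMA, so a difference of 1 is a 2-fold change. A call needed an adjusted p from limma below 0.05 together with a change of at least 2-fold in either direction. Arrays of the same group correlated at 0.996 to 0.998 across probe sets, and the lowest correlation between arrays of different groups was 0.959. Sart1, which encodes a spliceosome protein, had a log2 signal of 7.74 ± 0.03 in tumor, 8.37 ± 0.03 in adjacent liver and 8.34 ± 0.02 in wild-type liver (SD, n = 3 each). Its tumor value changed by -0.60 on the log2 scale against wild-type liver (limma adjusted p = 2.61e-06), and the adjacent liver differed from wild-type liver by 0.03 (adjusted p = 0.678). The 3′ minus 5′ log2 difference of Actb, a sign of RNA quality, was 0.59 ± 0.09 in tumor, 0.85 ± 0.05 in adjacent liver and 0.86 ± 0.02 in wild-type liver (SD, n = 3 each). The same difference for Gapdh was 0.21 ± 0.01 in tumor, 0.16 ± 0.02 in adjacent liver and 0.27 ± 0.02 in wild-type liver, so the 2 probes did not give the same order of groups. The part of RNA quality in the Cyp2c results was not tested. The pieces were those of liver by their markers: of 12 tested hepatocyte genes, 1 (Cps1) was called lower in tumor against wild-type liver and 0 in the other comparisons, and the log2 of their summed signal was 17.41 to 17.45 in tumor, 17.44 to 17.45 in adjacent liver and 17.45 to 17.48 in wild-type liver. These genes were very bright, with mean levels of 13.64 to 13.71 in tumor and 13.79 to 13.83 in wild-type liver. Signals so bright may show little of a change, so they do not measure the share of hepatocytes.

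Tumor was first set against wild-type liver, to see how the carcinoma differs from normal liver. Of the 9 measured members, 8 fell and none rose, and the remaining member, Cyp2c39, had a log2 difference of -0.82 that missed the minimum size (limma adjusted p = 2.5e-06). Among all genes tested, 13% were called, 4.59% lower and 8.41% higher. The median log2 difference was -4.03 over the members and -0.01 over all genes. In each of the 9 members, the tumor pieces lay below the wild-type pieces without overlap, as did 33.2% of all genes, where 69.1% lay apart in either direction. All 9 passed the adjusted p alone, as did 63.4% of all genes. Set by size, Cyp2c54, Cyp2c50 and Cyp2c37 ranked 4, 5 and 7 from the lowest of the 13888 differences, and Cyp2c70 ranked 423.

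**Figure D1:**
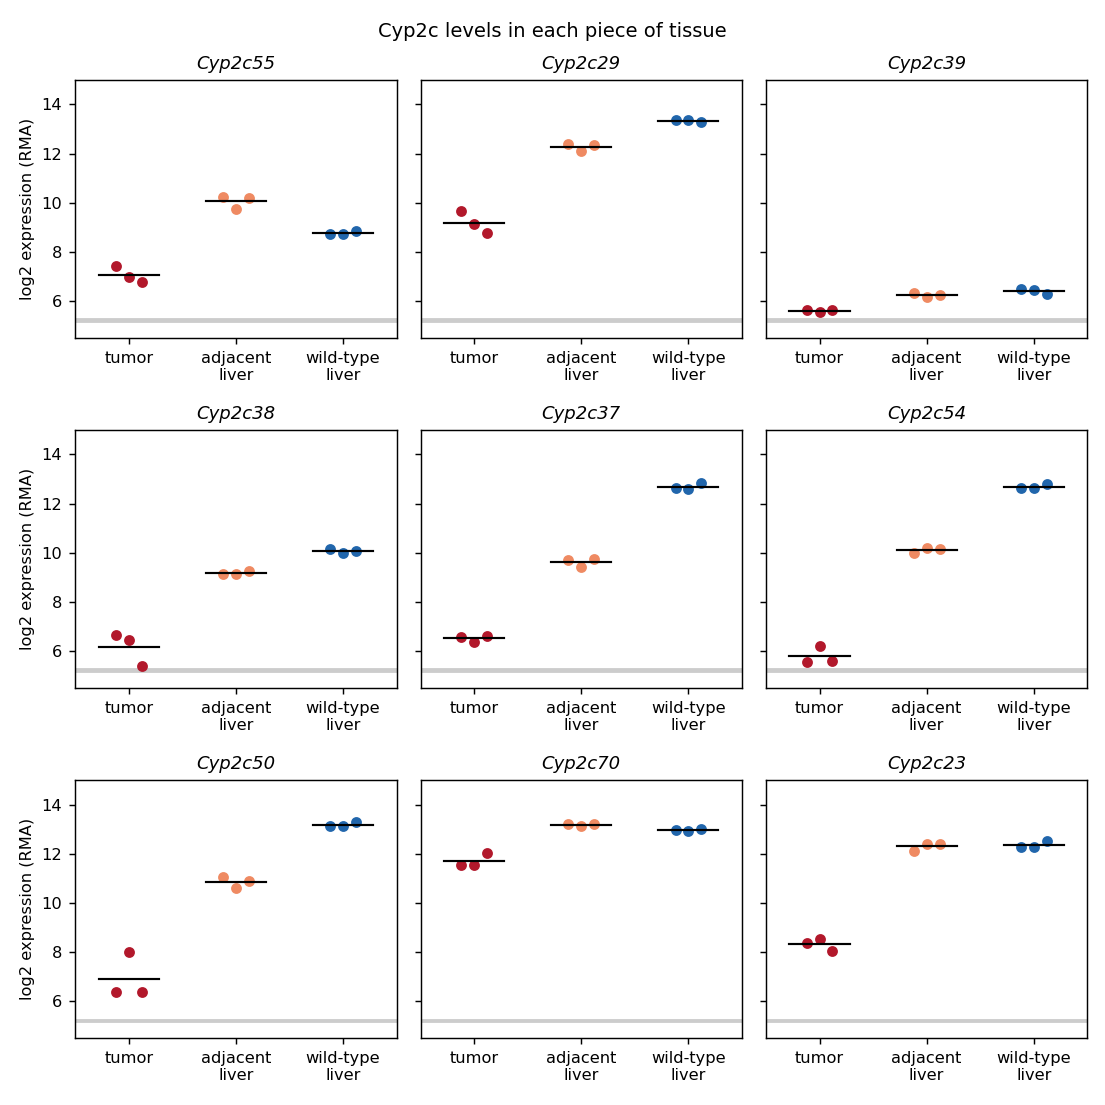
Log2 signal (RMA) of the 9 measured Cyp2c genes in the 3 pieces each of tumor, adjacent liver and wild-type liver, with 1 panel per gene. Points are pieces, bars are group means, and the grey band is the range of the arrays' 40th percentile (5.16 to 5.26). The tumor pieces lie below both other groups in each panel, and those of Cyp2c54 and Cyp2c39 and piece 3 of Cyp2c38 lie close to the band.

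The neighbours at the far end of the cluster, Cyp2c37, Cyp2c54 and Cyp2c50, encode enzymes that oxidise arachidonic acid, and Cyp2c50 and Cyp2c54 also act on linoleic acid. Cyp2c54 had log2 signals of 5.56, 6.23 and 5.60 in tumor, 10.00, 10.21 and 10.15 in adjacent liver, and 12.65, 12.65 and 12.78 in wild-type liver. The groups did not overlap, and the tumor values were at most about 1 log2 unit above the 40th percentile of the arrays. Against wild-type liver the tumor changed by a log2 difference of -6.89 (SE 0.15, limma adjusted p = 1.4e-10), a 118.9-fold change that depends on the background under so low a signal. The difference between tumor and adjacent liver was -4.32 (adjusted p = 2.61e-08), and that between adjacent and wild-type liver was -2.57 (adjusted p = 1.9e-07).

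Cyp2c50 had log2 signals of 6.38, 8.0 and 6.37 in tumor, 11.05, 10.61 and 10.89 in adjacent liver, and 13.12, 13.14 and 13.29 in wild-type liver. Tumor piece 2 stood well above pieces 1 and 3 and still below all adjacent pieces. The tumor changed by a log2 difference of -6.27 (SE 0.35) against wild-type liver (limma adjusted p = 9.75e-08) and by -3.93 against adjacent liver (adjusted p = 8.32e-06), and adjacent liver changed by -2.33 against wild-type liver (adjusted p = 0.000199). Leaving out tumor piece 2 gave -6.81 for tumor against wild-type liver. Pieces 1 and 3 were low, so the size of this decrease also depends on the background.

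Cyp2c37 had log2 signals of 6.57, 6.39 and 6.63 in tumor, 9.69, 9.44 and 9.77 in adjacent liver, and 12.62, 12.61 and 12.84 in wild-type liver. These are 3 levels without overlap and with nearly even steps. The tumor values were low, against 40th percentiles of 5.19 to 5.22 on those arrays. The size of the step down to tumor therefore also depends on the background. The tumor changed by -6.16 (SE 0.10) against wild-type liver on the log2 scale (limma adjusted p = 3.42e-11) and by -3.11 against adjacent liver (adjusted p = 1.81e-08), and adjacent liver changed by -3.05 against wild-type liver (adjusted p = 3.69e-09).

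Cyp2c29 is an abundant hepatic enzyme and a classical target of CAR. It had log2 signals of 9.66, 9.13 and 8.77 in tumor, 12.38, 12.12 and 12.33 in adjacent liver, and 13.35, 13.36 and 13.30 in wild-type liver. The tumor fell against both livers, with log2 differences of -4.15 (SE 0.18, limma adjusted p = 1.19e-08) against wild-type and -3.09 (adjusted p = 4.11e-07) against adjacent liver. Cyp2c38, which lies close by and oxidises arachidonic acid, had 6.65, 6.44 and 5.39 in tumor, 9.16, 9.13 and 9.27 in adjacent liver, and 10.16, 9.99 and 10.06 in wild-type liver. Tumor piece 3 was the lowest for this gene and lay just above the 40th percentile. The size of this decrease also depends on the background. Its log2 difference was -3.91 (SE 0.25) for tumor against wild-type liver (limma adjusted p = 2.61e-07) and -3.03 for tumor against adjacent liver (adjusted p = 4.89e-06).

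Cyp2c39, whose product hydroxylates retinoic acid, had log2 signals of 5.64, 5.55 and 5.64 in tumor, 6.32, 6.17 and 6.23 in adjacent liver, and 6.51, 6.46 and 6.31 in wild-type liver. It was dim on all 9 arrays and lay nearest to the 40th percentile in tumor. The tumor differed by -0.82 from wild-type liver and by -0.63 from adjacent liver (limma adjusted p = 3.83e-05), both under the minimum size of 1.

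Cyp2c23, an arachidonic acid epoxygenase, had log2 signals of 8.39, 8.54 and 8.05 in tumor, 12.12, 12.39 and 12.40 in adjacent liver, and 12.30, 12.27 and 12.51 in wild-type liver. Adjacent and wild-type liver overlapped, and the tumor lay far below both. The tumor changed by -4.03 (SE 0.13) against wild-type liver (limma adjusted p = 1.63e-09) and by -3.98 against adjacent liver (adjusted p = 1.5e-08) on the log2 scale. The identifier of its probe set, alone among the 9, ends in _s_at, the mark for probes shared by several transcripts, whereas the other 8 end in a plain _at.

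Cyp2c55, an inducible enzyme best known from the colon, had log2 signals of 7.45, 6.97 and 6.80 in tumor, 10.23, 9.75 and 10.20 in adjacent liver, and 8.75, 8.74 and 8.87 in wild-type liver. Adjacent liver was the highest group and tumor the lowest, without overlap, and Cyp2c70 had the same order. The tumor changed by -1.71 (SE 0.17) against wild-type liver (limma adjusted p = 6.54e-06) and by -2.99 against adjacent liver (adjusted p = 3.51e-07). Cyp2c70, the muricholic acid enzyme, kept the highest tumor share of its own wild-type signal among the members called lower in tumor. It had 11.54, 11.53 and 12.03 in tumor, 13.22, 13.12 and 13.19 in adjacent liver, and 12.96, 12.91 and 13.02 in wild-type liver, on the log2 scale. The tumor changed by -1.26 (SE 0.12, 2.40-fold) against wild-type liver (limma adjusted p = 4.65e-06) and by -1.48 against adjacent liver (adjusted p = 3.67e-06).

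Tumor was next set against adjacent liver, which comes from the same animal. Again 8 of 9 members were called lower and 0 higher, where 5.04% of all genes were called, 2.94% lower and 2.1% higher. The tumor pieces lay below the adjacent pieces in all 9 members, as in 28.5% of all genes, where 53% lay apart in either direction. All 9 passed the adjusted p alone, as did 45.2% of all genes. The median log2 difference was -3.09 over the members, against -0.01 over all genes. Besides Cyp2c39 and Cyp2c70, the members lay between -4.32 and -2.99. By size, Cyp2c54, Cyp2c23 and Cyp2c50 ranked 3, 6 and 7 from the lowest of all differences. Each of the 3 comparisons shares a group of arrays with each of the others, so they are not independent.

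**Figure D2:**
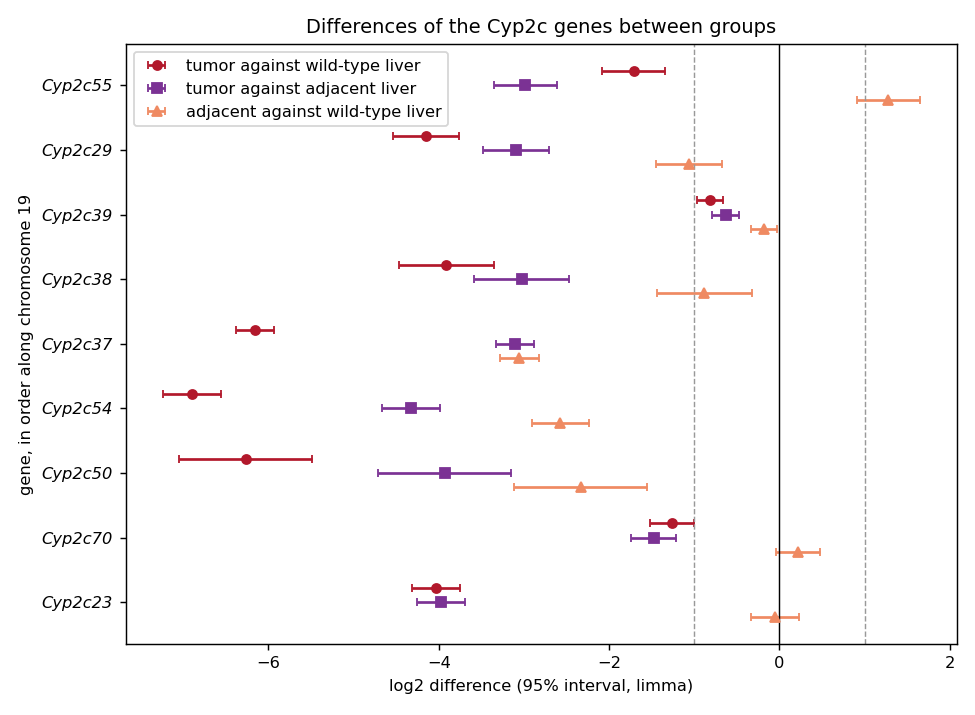
Log2 differences of the 9 measured Cyp2c genes in the 3 comparisons (tumor over wild-type, tumor over adjacent, adjacent over wild-type), with genes in their order along chromosome 19. Points are limma estimates with their 95% intervals and dashed lines mark differences of 1 in size. Cyp2c37, Cyp2c54 and Cyp2c50 are the lowest in adjacent against wild-type liver, and Cyp2c55 is the one member called higher there (1.28).

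Adjacent liver against wild-type liver separated the members. Cyp2c37, Cyp2c54, Cyp2c50 and Cyp2c29 fell, Cyp2c55 rose, and Cyp2c23, Cyp2c38, Cyp2c39 and Cyp2c70 were not called. Over all genes, 11.5% were called, 3.22% lower and 8.29% higher, and the median log2 difference was -0.88 over the members against -0.01 over all genes. The adjacent pieces lay below the wild-type pieces in 5 members and above them in 2, Cyp2c55 and Cyp2c70, where the shares over all genes were 33% and 36.5%, or 69.5% in either direction. Adjusted p alone was passed by 7 members and by 63% of all genes. In Cyp2c23 and Cyp2c39 the groups overlapped. Cyp2c37, Cyp2c54 and Cyp2c50 ranked 32, 53 and 62 from the lowest difference, and Cyp2c55 ranked 13102 of 13888.

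Cyp2c55 rose by a log2 difference of 1.28 (SE 0.17), or 2.42-fold, in adjacent against wild-type liver (limma adjusted p = 6.76e-05). Cyp2c29 changed by -1.06 (adjusted p = 0.000386), and without adjacent liver piece 2 its difference was -0.98, which no longer reached the minimum size. Cyp2c38 had -0.88 (adjusted p = 0.0106) and Cyp2c39 had -0.18 (adjusted p = 0.0428), both under that size. The size threshold alone set Cyp2c38 apart from Cyp2c29 here, and within arrays their changes differed by -0.18, with overlap between groups. For Cyp2c23 the difference was -0.05, with a 95% interval of -0.34 to 0.23 (adjusted p = 0.725). For Cyp2c70 it was 0.22, with a 95% interval of -0.04 to 0.48 (adjusted p = 0.129). Neither interval reaches a 2-fold change.

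The members were also compared with each other, by the difference between 2 members within each array. With 3 arrays against 3, the exact two-sided permutation test cannot go below p = 0.1, and after adjustment over the 36 pairs of a comparison the smallest value was 0.116 (tumor and wild-type liver), 0.15 (tumor and adjacent liver) or 0.109 (adjacent and wild-type liver), so no pair could pass. As a description, in tumor against wild-type liver, the log2 difference of Cyp2c54 minus that of Cyp2c70 was -5.63, and for Cyp2c37 minus Cyp2c70 it was -4.90. The changes of Cyp2c37 and Cyp2c50, the pair with windows alike at 87.8% of bases, differed by 0.11 there and overlapped between groups (exact permutation p = 1.0). That small gap rests on the high tumor piece 2 of Cyp2c50. Without it Cyp2c50 changed by -6.81 in tumor against wild-type liver. Cyp2c38 and Cyp2c39, with windows alike at 89.6% and 85.5% of bases, differed by -3.10 in that comparison, without overlap. Cyp2c39 was dim on all arrays. Whether like windows go with like changes was not tested. In adjacent against wild-type liver Cyp2c37 and Cyp2c50 differed by -0.72, without overlap, while Cyp2c50 and Cyp2c54 differed by 0.24, with overlap (exact permutation p = 0.4). The difference of Cyp2c37 minus that of Cyp2c55 was -4.33 in the same comparison.

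The genes of this family are alike enough that a probe set may also take up RNA of a neighbour, and the probe sequences were not used here. The part of such cross-hybridisation in the values was not tested. Cyp2c37, Cyp2c50 and Cyp2c54 each had the order tumor, adjacent, wild-type from low to high. Tumor piece 2 was the highest for Cyp2c50 and Cyp2c54 and the lowest for Cyp2c37, whose tumor pieces spanned only 0.24 on the log2 scale. The SD over tumor pieces was 0.05 to 0.94 with a median of 0.34, against 0.05 to 0.27 in adjacent liver and 0.03 to 0.13 in wild-type liver. The 2 further Cyp2c genes measured have a probe set of their own symbol. Cyp2c68 had log2 signals of 11.02 ± 0.36 in tumor, 12.90 ± 0.09 in adjacent liver and 12.59 ± 0.12 in wild-type liver (SD, n = 3 each), and changed by -1.57 in tumor against wild-type liver (limma adjusted p = 5.07e-06) and by -1.88 against adjacent liver. Cyp2c65, the neighbour of Cyp2c55, stayed at 3.10 to 4.14 on all arrays, below the filter, and was not tested.

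**Figure D3:**
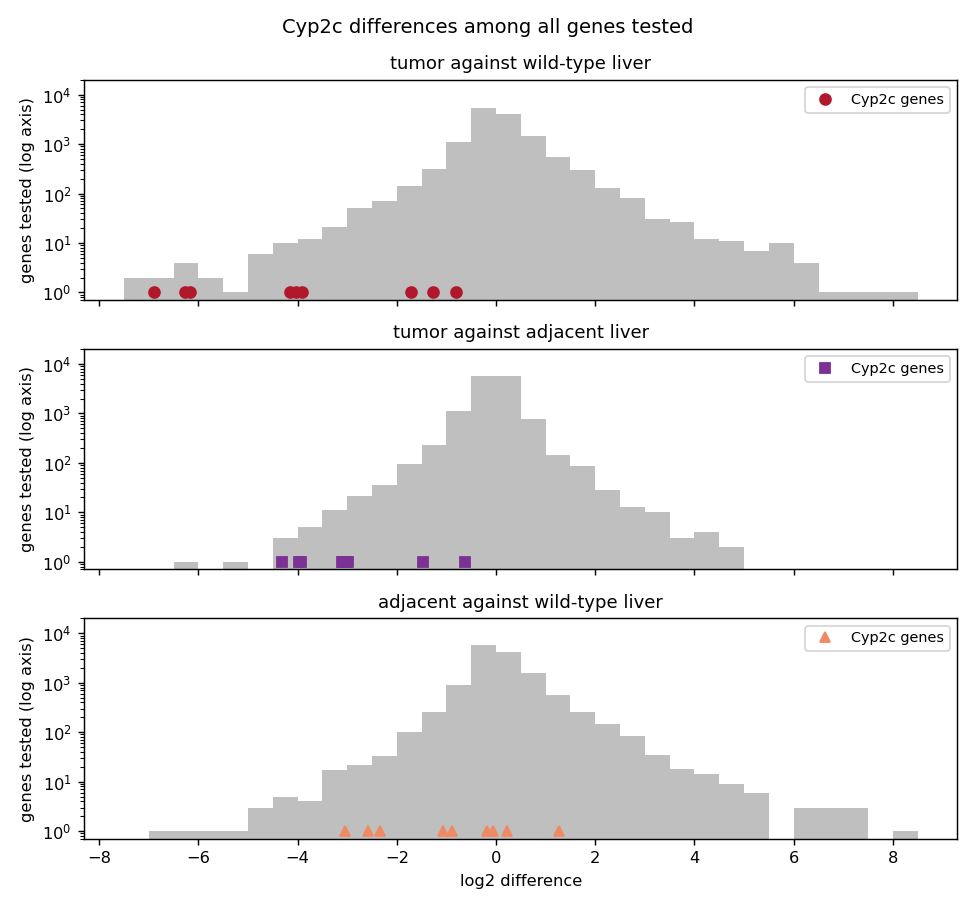
Distribution of the log2 differences of all 13888 tested genes in the 3 comparisons, as histograms in bins of 0.5 with the number of genes on a log axis, with the 9 Cyp2c genes marked along the bottom. In tumor against wild-type liver the members lie from -6.89 to -0.82, and in adjacent against wild-type liver they spread from -3.05 to 1.28.

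The likeness of 2 profiles was measured as the root mean square difference over the 9 arrays after each gene's wild-type mean was subtracted. Among the members themselves, Cyp2c29 and Cyp2c38 were the closest pair (0.25), followed by Cyp2c39 and Cyp2c70 (0.37) and by Cyp2c50 and Cyp2c54 (0.49). The measure is not scaled, so genes that change little lie close whatever their order of groups. Cyp2c39 and Cyp2c70 differed in sign in adjacent against wild-type liver (-0.18 and 0.22), and their within-array difference did not overlap there. For each member, the nearest tested gene outside the members was also found. Of these, Cyp4a14, a fatty acid hydroxylase, was nearest to Cyp2c37 (0.47), Cyp2c50 (0.75) and Cyp2c54 (0.83). Its own log2 difference in tumor was -5.93 against wild-type and -2.73 against adjacent liver, and in adjacent liver it was -3.20 against wild-type liver. Also outside the members, Dio1, which activates thyroid hormone, was nearest to Cyp2c23 (0.31), and Cyp4f14, a fatty acid hydroxylase, to Cyp2c38 (0.40). Acot3, a peroxisomal thioesterase, was nearest to Cyp2c55 (0.32). It was likewise highest in adjacent liver, with a log2 difference of -2.39 in tumor against adjacent liver. Esr1, the estrogen receptor, was nearest to Cyp2c70 (0.12), Fam47e to Cyp2c29 (0.36) and Gcsh, of the glycine cleavage system, to Cyp2c39 (0.06).

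Among the regulators of P450 genes, Nr1i3, the gene of CAR, fell in tumor. It had log2 signals of 8.06, 8.07 and 8.11 in tumor, 9.83, 10.01 and 10.04 in adjacent liver, and 10.29, 10.26 and 10.18 in wild-type liver, in 3 groups without overlap. Its log2 difference was -2.17 in tumor against wild-type liver (limma adjusted p = 1.48e-09), -1.88 in tumor against adjacent liver (adjusted p = 2.61e-08) and, below the minimum size, -0.28 in adjacent against wild-type liver (adjusted p = 0.00392). Of the 25 regulators tested, 5 fell and 0 rose in tumor against wild-type liver, with a median of -0.30. Besides Nr1i3 they included Ahr, the receptor for dioxin-like compounds (-2.18), Bcl6, a repressor of growth hormone target genes (-1.23), and Ppargc1a (-1.28). In tumor against adjacent liver, 1 fell and 2 rose (Rora by 1.04, Foxa1 by 1.21), with a median of 0.01. In adjacent against wild-type liver, 5 fell and 0 rose, with a median of -0.46. Ahr (-2.17) and Bcl6 (-2.18) were again among those that fell.

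Nr1i2, Hnf4a and Cebpa, picked for their known part in Cyp2c transcription after their values were seen, were not called in any comparison. Nr1i2 differed by -0.08 in tumor against wild-type liver (limma adjusted p = 0.573), Hnf4a by -0.20 (adjusted p = 0.00938) and Cebpa by 0.05 (adjusted p = 0.572). Of 15 tested target genes of CAR and PXR outside the Cyp2c family, 5 fell and 2 rose in tumor against wild-type liver. The figures were 3 and 0 for tumor against adjacent liver, and 3 and 1 for adjacent against wild-type liver, with medians of -0.24, -0.42 and 0.06. Cyp2b10, the classical CAR target, changed by -3.39 in tumor (adjusted p = 8.22e-08) and by -2.93 in adjacent liver (adjusted p = 3e-07), both against wild-type liver, and differed by -0.46 between tumor and adjacent liver (adjusted p = 0.0696), in its brightest probe set. In that probe set tumor (6.92 to 7.36) lay below adjacent liver (7.42 to 7.97) without overlap. The other 2 Cyp2b10 probe sets also separated tumor from adjacent liver without overlap. One had log2 signals of 4.01 to 4.15 in tumor, 5.60 to 6.33 in adjacent liver and 9.12 to 9.57 in wild-type liver. Its tumor values lay below the filter level for dim signals on those arrays (5.19 to 5.22), so their size depends on the background. The other had 5.85 to 5.87 in tumor, 6.78 to 7.41 in adjacent liver and 10.31 to 10.76 in wild-type liver. Abcb1a, a drug efflux pump, went the other way, with 3.31 in tumor and 3.80 in adjacent liver against wild-type liver.

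**Figure D4:**
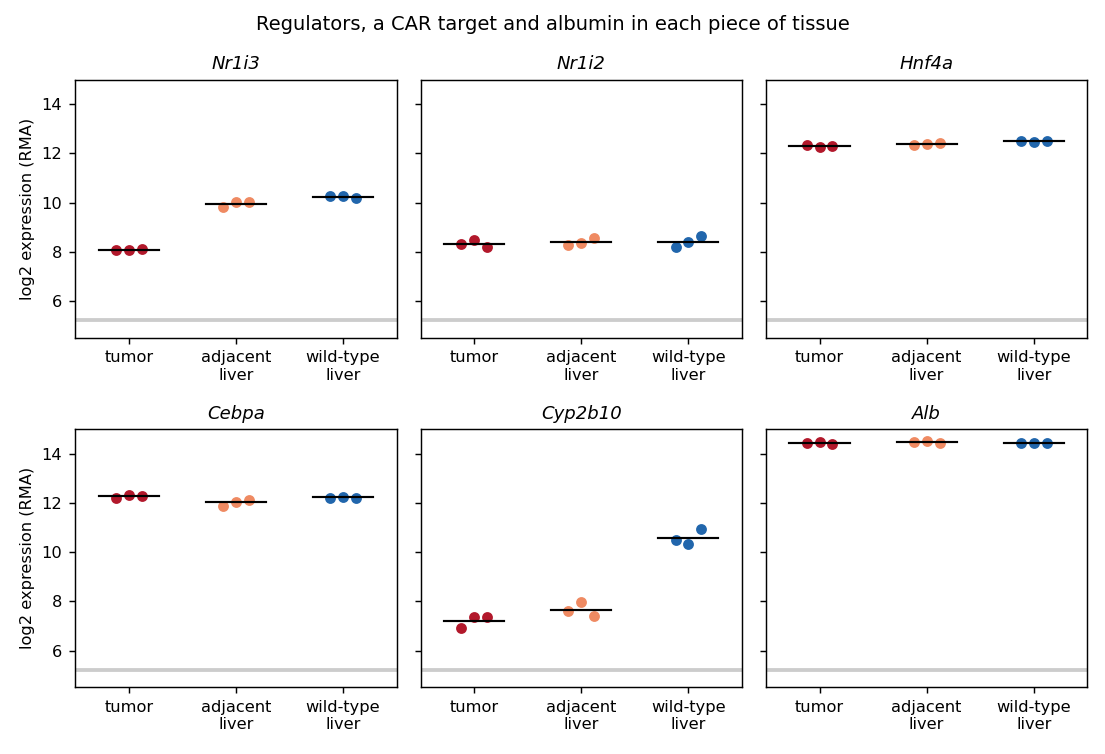
Log2 signal (RMA) of Nr1i3, Nr1i2, Hnf4a, Cebpa, Cyp2b10 and Alb in the 3 pieces each of tumor, adjacent liver and wild-type liver, with points for pieces and bars for group means. Nr1i3 is lowest in tumor (8.08 against 9.96 in adjacent and 10.24 in wild-type liver), the probe set of Cyp2b10 shown averages 7.21 in tumor, 7.67 in adjacent liver and 10.60 in wild-type liver, and Alb, the albumin gene, averages 14.45, 14.49 and 14.45 in tumor, adjacent and wild-type liver.

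Other P450 genes of family 2, a list that includes Cyp2c68, were counted next. Of 22 tested, 9 fell and 1 rose in tumor against wild-type liver, 5 and 1 in tumor against adjacent liver, and 5 and 2 in adjacent against wild-type liver, with median log2 differences of -0.67, -0.12 and -0.37. Cyp2j5, another arachidonic acid epoxygenase, changed by -2.49 in tumor against wild-type liver (limma adjusted p = 3.59e-08) and by -1.82 against adjacent liver (adjusted p = 1.17e-06). Cyp2g1 had the Cyp2c55 order, with a log2 difference of -2.52 in tumor against adjacent liver and of 1.95 in adjacent against wild-type liver. Of the 22 other arachidonic acid and epoxide enzymes tested, 7 fell and 4 rose in tumor against wild-type liver, 6 and 3 against adjacent liver, and 1 and 5 in adjacent against wild-type liver. Their medians were -0.29, -0.29 and -0.15. Cbr3 had the smallest adjusted p of this list against wild-type liver. It rose by 7.36 in tumor (adjusted p = 1.77e-11) and by 6.20 in adjacent liver (adjusted p = 1.25e-10). Cyp4f14 changed by -3.51 in tumor against wild-type liver (adjusted p = 2.46e-08), and Ephx1, the microsomal epoxide hydrolase, rose by 1.15 in adjacent liver (adjusted p = 9.2e-08). Ptgds rose by 3.78 in adjacent against wild-type liver and changed by -4.26 in tumor against adjacent liver. The 14 tested genes that supply electrons and heme to P450 enzymes had medians of -0.10, -0.07 and 0.00, with 2 lower and 1 higher in tumor against wild-type liver, 0 lower and 1 higher in tumor against adjacent liver, and 1 lower and 0 higher in adjacent against wild-type liver.

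Among 18 bile acid genes beside Cyp2c70, 11 fell and 0 rose in tumor against wild-type liver, 6 and 0 in tumor against adjacent liver, and 7 and 1 in adjacent against wild-type liver, with medians of -1.59, -0.66 and -0.70. Cyp8b1, the sterol 12-hydroxylase, changed by -5.81 in tumor (limma adjusted p = 2.6e-09) and by -5.26 in adjacent liver (adjusted p = 7.16e-09) against wild-type liver, and Cyp7b1, the oxysterol 7-hydroxylase, changed by -2.86 in tumor against adjacent liver. Among 12 tested retinoid enzymes beside Cyp2c39, 5 fell and 0 rose in tumor against wild-type liver, 3 and 2 in tumor against adjacent liver, and 5 and 0 in adjacent against wild-type liver, with medians of -0.95, -0.06 and -0.40. Cyp26a1, the main retinoic acid hydroxylase, changed by -4.13 in tumor (adjusted p = 1.5e-10) and by -2.71 in adjacent liver (adjusted p = 3.9e-09) against wild-type liver.

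Male-biased liver genes, which follow the male pattern of growth hormone, were low in both tissues of the SART1+/- mouse. Of 12 tested, 10 fell and 0 rose in tumor against wild-type liver and 9 fell and 0 rose in adjacent against wild-type liver, with medians of -3.94 and -2.62. In tumor against adjacent liver, 4 fell and 2 rose, with a median of -0.66. Slco1a1, a bile acid and steroid transporter, differed by -6.27 in tumor and by -5.70 in adjacent liver against wild-type liver. Of 11 female-biased genes tested, 1 fell and 4 rose in tumor against wild-type liver, 2 and 3 in tumor against adjacent liver, and 1 and 5 in adjacent against wild-type liver, with medians of 0.15, -0.23 and 0.49. The part of the sex-biased pattern in the Cyp2c differences was not tested.

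Genes of the pericentral zone, where many P450 genes are expressed, were counted beside the Cyp2c genes. Of 13 tested, 10 fell in tumor and 11 in adjacent liver against wild-type liver, and none rose, with medians of -1.47 and -1.76. In tumor against adjacent liver, where 8 Cyp2c members fell, 1 pericentral gene fell and 2 rose, with a median of -0.07. The log2 of their summed signal was 13.93 to 14.81 in tumor, 13.62 to 14.72 in adjacent liver and 16.01 to 16.13 in wild-type liver. Of 9 periportal genes tested, 3 fell and 1 rose in tumor, and 4 fell and 1 rose in adjacent liver, against wild-type liver, and 0 fell and 1 rose in tumor against adjacent liver, with medians of -0.75, -0.58 and 0.01. The part of zonal genes in the Cyp2c differences was not tested.

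Markers of other cells were counted as well. These counts use the brightest probe set of each gene, and other probe sets can differ. The macrophage gene Ccr2 averaged 7.51 in tumor, 7.56 in adjacent liver and 7.77 in wild-type liver in its brightest probe set. Another of its probe sets averaged 7.37, 7.48 and 6.17 in the same order. Against wild-type liver, 8.41% of all genes were called higher and 4.59% lower in tumor. In adjacent liver these shares were 8.29% and 3.22%. Of 16 stellate and fibroblast genes tested, 7 rose and 1 fell in tumor and 7 rose and 2 fell in adjacent liver against wild-type liver, and the log2 of their summed signal was 14.04 to 14.50 in tumor, 13.94 to 14.26 in adjacent liver and 13.42 to 13.78 in wild-type liver. Of 17 macrophage genes, 5 rose and 2 fell in tumor and 4 rose and 3 fell in adjacent liver, with summed signals of 14.26 to 14.58, 14.14 to 14.48 and 13.55 to 13.65 in tumor, adjacent and wild-type liver. In tumor against adjacent liver, no macrophage, endothelial, lymphocyte or neutrophil gene of the lists was called, and 2 stellate genes rose. Against wild-type liver, 2 of 16 endothelial, 1 of 12 lymphocyte, 3 of 9 neutrophil and 2 of 8 cholangiocyte genes rose in tumor and none fell. In adjacent liver 2, 1, 3 and 3 genes of these lists rose, and 2 endothelial genes fell. The lymphocyte and endothelial counts that rose were near the share of all genes called higher. The log2 of the summed endothelial signal was 12.99 to 13.29 in tumor, 12.91 to 13.10 in adjacent liver and 13.21 to 13.27 in wild-type liver, and that of the lymphocyte genes was 10.08 to 10.11, 9.95 to 10.12 and 9.72 to 9.78. The neutrophil genes had 10.81 to 11.08 in tumor, 10.53 to 10.84 in adjacent liver and 9.37 to 9.44 in wild-type liver. The cholangiocyte genes had 10.71 to 10.83 in tumor, 11.17 to 11.44 in adjacent liver and 9.20 to 9.30 in wild-type liver, with 1 lower in tumor against adjacent liver.

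Intestinal epithelial genes were counted because Cyp2c55 is known from the colon. Of 10 tested, 3 rose and 1 fell in tumor against wild-type liver, 1 rose and 1 fell in tumor against adjacent liver, and 3 rose and 1 fell in adjacent against wild-type liver. Their medians were 0.12, 0.20 and -0.12. The gene that fell against wild-type liver was Car1, which changed by -2.15 in tumor and by -1.17 in adjacent liver. The log2 of the summed signal, which weighs the brightest genes most, was 13.26 to 13.42 in tumor, 12.75 to 13.07 in adjacent liver and 11.43 to 11.55 in wild-type liver. Vil1, the villin gene, rose by 3.79 in tumor and by 7.11 in adjacent liver against wild-type liver, and had a log2 difference of -3.32 in tumor against adjacent liver. Cdh17, an intestinal cadherin, went the other way between these tissues, with 4.41 in tumor against adjacent liver, and Tff3, a trefoil factor, averaged 12.36 in tumor, 11.36 in adjacent liver and 6.48 in wild-type liver. The part of these markers, and of the other cell types, in the Cyp2c differences was not tested.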

How the data were processed

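Per the submitters' processing notes, the authors ran RMA to make the deposited log2 expression values, using Affymetrix Expression Console 1.3.1.187. No detection calls were used here. RMA equalises the arrays, which hides a shift of most genes one way. Of 45101 probe sets, 34958 have 1 gene symbol in the platform annotation and were used, 932 have several and 9211 none. RefSeq (GRCm38.p6) held the identifiers of 34754 and changed 0 symbols.

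A gene was represented by its probe set with the highest mean and tested when at least 3 arrays held it above their own 40th percentile, which left 13888 genes. limma 3.58.1 in R 4.3.3 fitted 1 mean per group over all 9 arrays (6 residual degrees of freedom), with Benjamini-Hochberg adjustment over all genes. Each adjusted p above comes from it. The steps were tested on simulated data. With 3 arrays per group, precision is limited. The sources used here give no scan dates, and array batches were not tested.

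The members, the gene lists and the rule for named genes were chosen with earlier results of these data known. The rule names the members, Sart1, the gene outside the members nearest in profile to each member, and up to 4 called genes per list and comparison with the smallest adjusted p. List sizes given are those tested. The alternatives varied the threshold, the filter, the choice among probe sets, the normalization, the variance model and the arrays used.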

Additional observations from a re-analysis of the deposited data

How the results depend on the processing

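No Cyp2c difference changed sign in a called result under any of the 22 alternatives, and 581 of the 591 recomputed member differences kept their side of the threshold. Much of this was fixed beforehand, since each member has 1 probe set. Only normalization, weighting of arrays and leaving out an array of the compared groups could alter a member's difference itself. The other alternatives could only move its adjusted p, move the threshold or drop the gene. With adjusted p alone, the calls over all genes were 8799 (tumor and wild-type liver), 6274 (tumor and adjacent liver) and 8745 (adjacent and wild-type liver), against 1806, 700 and 1599 with the minimum difference of 1, and Cyp2c39 was then called lower in all 3 comparisons and Cyp2c38 in adjacent liver. A minimum log2 difference of 2 left 496, 138 and 406 genes, and 3 of the 5 members called in adjacent against wild-type liver. It ended the calls of Cyp2c55 and Cyp2c70 in tumor against wild-type liver, Cyp2c70 in tumor against adjacent liver, and Cyp2c29 and Cyp2c55 in adjacent against wild-type liver. Leaving out 1 array at a time kept 8 members called in both tumor comparisons and 4 to 5 in adjacent against wild-type liver, the lower count being without adjacent liver replicate 2, which ended the call of Cyp2c29. Under the filter at the 60th percentile Cyp2c39 was not tested. The replicate numbers did not pair the pieces (the correlations of same-numbered deviations were -0.113 to 0.138), and the fit with the replicate number as a block called 8, 8 and 5 members and 1807, 700 and 1599 genes. Signals near the 40th percentile, such as those of Cyp2c39, of Cyp2c54 in tumor and of Cyp2c38 in tumor piece 3, limit how large a decrease can be read. The low tumor signals of Cyp2c37 and of Cyp2c50 in pieces 1 and 3 do so to a lesser degree.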
